A study of Mus musculus with 6 samples.

Results

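The Id family (inhibitors of DNA binding and differentiation) comprises Id1, Id2, Id3 and Id4, and its members were taken as the rows of the expression files with these gene symbols, which gave 4 of the 47719 genes listed. Each was expressed in all 6 prostates. All mice were B6.129S4-Trp53tm3.1Tyj/J animals aged about 3 months, irradiated over the whole body with a dose of 5 Gy, whose prostates were taken 6 h afterwards. The groups were 2 wildtype mice (Trp53+/+, animals 39 and 41), 2 heterozygous mice (Trp53+/R270H, animals 37 and 40) and 2 homozygous mice (Trp53R270H/R270H, animals 47 and 49). R270H is a missense mutation in the DNA binding domain of p53. No unirradiated mouse was included, so none of the values below measures a response to irradiation. RNA came from snap-frozen prostates, and how the glands were dissected is not given in the sources used here. In such bulk RNA fewer cells of a type and less RNA per cell cannot be told apart.

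Id proteins are helix-loop-helix (HLH) proteins without the basic region with which other members of the HLH class contact DNA. They pair with the ubiquitous E proteins (Tcf3, Tcf4 and Tcf12) and keep them from pairing with tissue-specific basic HLH factors at E-box motifs, and they are known for holding progenitor cells in an undifferentiated, dividing state. Id1, Id2 and Id3 are classical direct targets of bone morphogenetic protein (BMP) signalling through the Smad transcription factors. Id4 is known from neural and prostate epithelial differentiation. The study compared the genotypes to find genes that depend on the p53 mutation, and it named Id4 as a known gain-of-function gene, that is, a gene under the control of mutant p53 that wildtype p53 does not normally control.

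The 4 genes lie on 4 chromosomes of GRCm38 (GENCODE M21). Id1 spans chr2:152736251-152737410 on the plus strand with 2 exons and a reading frame of 148 codons. Id2 spans chr12:25093799-25097140 on the minus strand with 3 exons and 134 codons. Id3 spans chr4:136143497-136145755 on the plus strand with 3 exons and 119 codons, and Id4 spans chr13:48261228-48266026 on the plus strand with 3 exons and 161 codons. The family is defined by its HLH region, so a window of 40 codons from the coding exons over that region is shown for each gene, 5′ to 3′ on the coding strand, with capitals at the bases that are identical in all 4 genes.
Id1, chr2:152736518-152736637, plus strand: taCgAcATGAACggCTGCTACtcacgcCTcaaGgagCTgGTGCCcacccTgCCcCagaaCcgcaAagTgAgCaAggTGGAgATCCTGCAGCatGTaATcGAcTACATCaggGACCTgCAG
Id2, chr12:25095783-25095902, minus strand: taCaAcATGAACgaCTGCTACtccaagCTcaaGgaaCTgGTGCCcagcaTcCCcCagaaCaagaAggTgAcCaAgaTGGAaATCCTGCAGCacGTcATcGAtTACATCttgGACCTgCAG
Id3, chr4:136144002-136144121, plus strand: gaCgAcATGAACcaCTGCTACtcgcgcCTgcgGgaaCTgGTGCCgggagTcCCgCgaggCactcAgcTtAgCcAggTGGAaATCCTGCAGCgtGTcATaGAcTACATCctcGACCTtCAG
Id4, chr13:48261693-48261812, plus strand: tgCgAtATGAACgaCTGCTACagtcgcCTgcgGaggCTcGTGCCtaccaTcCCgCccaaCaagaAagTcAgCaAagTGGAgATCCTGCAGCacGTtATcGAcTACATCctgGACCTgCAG
In these windows 69 of 120 bases (57.5%) were identical in all 4 genes. The windows were placed where the summed identity of Id1 to in-frame windows of the other members was highest. The identities given here are therefore high by choice of the window. Between pairs the identity ranged from 70.8% (Id1 with Id3, and Id3 with Id4) to 81.7% (Id1 with Id2). The longest run of identical bases shared by the transcripts of any pair was 19 bases, between Id2 and Id3, which is much shorter than a sequencing read, so that the 4 genes are not near-identical copies.

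The FPKM (fragments per kilobase of transcript, scaled to the mapped fragments of each library) of each Id gene in each mouse is given first, since FPKM is scaled to gene length and permits a comparison of levels between genes. Id3 had the highest level of the family in all 6 mice and Id4 the lowest. Averaged over the 6 mice, Id3 had an FPKM of 135, Id1 of 68.0, Id2 of 62.5 and Id4 of 18.8, which placed them at ranks 488, 1081, 1193 and 4161 of the 13818 tested genes, those whose FPKM averaged at least 1. The level of Id4 did not overlap that of any other member, since its highest value (23.5) lay below the lowest value of the others (38.9, Id1 in mouse 39). Id1 and Id2 were not separated: Id1 exceeded Id2 in mice 41, 37 and 40, and Id2 exceeded Id1 in mice 39, 47 and 49.

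**Figure D1:**
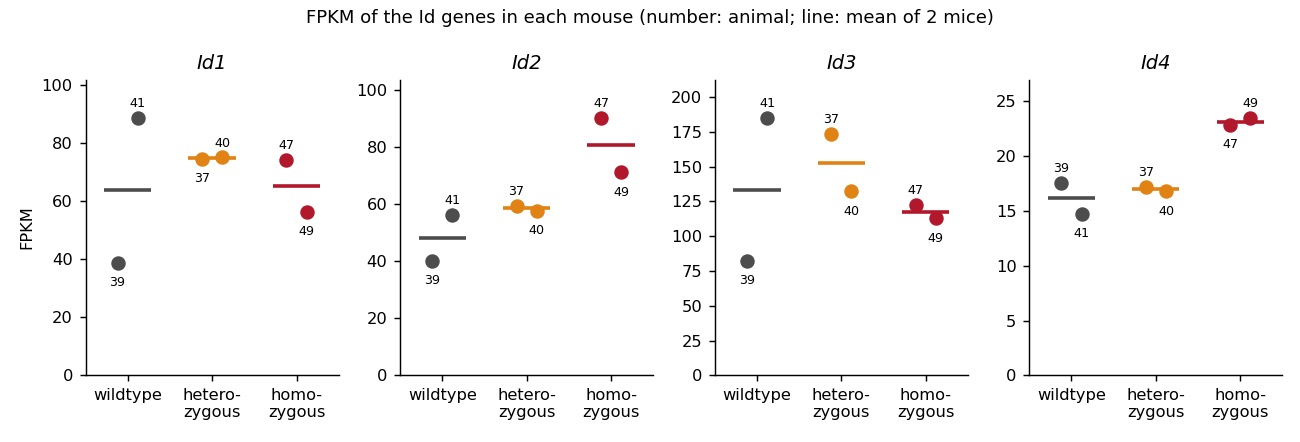
FPKM (linear axis from 0) of Id1, Id2, Id3 and Id4 in each of the 6 irradiated prostates by Trp53 genotype, with points labelled by animal number and bars at the mean of each pair. For Id2 and Id4 both homozygous mice (71.2 and 90.2 for Id2, 22.9 and 23.5 for Id4) lie above every other mouse, while for Id1 and Id3 the values of the wildtype pair are spread over more than the range of both other genotypes.

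Id2, which binds E proteins and is also described as a partner of the retinoblastoma protein, was ordered by the number of mutant alleles. Its FPKM was 40.1 in wildtype mouse 39 and 56.2 in wildtype mouse 41, 59.4 and 57.6 in heterozygous mice 37 and 40, and 90.2 and 71.2 in homozygous mice 47 and 49. No value overlapped that of another genotype, an order that 532 of the 13818 tested genes showed (3.85%), or 8.83% when genes with the opposite order are counted too. The group means were 48.2 ± 11.4, 58.5 ± 1.28 and 80.7 ± 13.4 with 0, 1 and 2 mutant alleles (SD, n = 2 each). The distance between the highest wildtype and the lowest heterozygous value was only a small part of the difference between the wildtype mice.

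Id4, the member named by the study, was set apart in the homozygous mice only by rank and not by the test of all genes. Its FPKM was 17.5 and 14.8 in wildtype mice 39 and 41, 17.2 and 16.8 in heterozygous mice 37 and 40, and 22.9 and 23.5 in homozygous mice 47 and 49. The heterozygous values lay between the wildtype values, whereas both homozygous values were above the other 4 mice. Homozygous values above both other genotypes were found for 10.6% of tested genes, and among the Id genes for Id2 and Id4. The group means were 16.2 ± 1.98, 17.0 ± 0.311 and 23.2 ± 0.413 (SD, n = 2 each), and its highest value over the 6 mice was 1.59 times its lowest, beside 2.25 to 2.28 times for the other members. The study selected Id4 on these same 6 mice, so its values here are not independent evidence for its direction.

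Id1, the founding member of the family, did not separate wildtype mice from the others. Its FPKM was 38.9 and 88.7 in wildtype mice 39 and 41, 74.7 and 75.2 in heterozygous mice 37 and 40, and 74.2 and 56.4 in homozygous mice 47 and 49. The wildtype pair held both the lowest and the highest value of the 6 mice. The group means were 63.8 ± 35.2, 75.0 ± 0.314 and 65.3 ± 12.6 (SD, n = 2 each).

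Id3, which overlaps with Id1 in its role in vessel growth, had the same arrangement at a higher level. Its FPKM was 82.2 and 185 in wildtype mice 39 and 41, 173 and 132 in heterozygous mice 37 and 40, and 123 and 113 in homozygous mice 47 and 49, with means of 133 ± 72.4, 153 ± 29.0 and 118 ± 6.91 (SD, n = 2 each). Again the wildtype pair spanned the values of all other mice. For both Id1 and Id3 the homozygous values were below the heterozygous values without overlap, whereas for Id2 and Id4 they were above them, and such a separation in either direction was found for 42.1% of tested genes.

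The wildtype pair differed 2.28-fold for Id1 and 2.25-fold for Id3, but only 1.40-fold for Id2 and 1.19-fold for Id4. Ranked by the size of this difference among all tested genes, Id1 and Id3 stood at percentiles 95.2 and 95.1, Id2 at 80.5 and Id4 at 56.6. Mouse 39 held the lowest value of Id1, Id2 and Id3 but the third highest of Id4.

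In heterozygous against wildtype mice no Id gene passed the test. With limma on log2(FPKM + 0.1) and Benjamini-Hochberg adjustment, this contrast called 0 of 13818 genes (0%) at an adjusted p-value under 0.05, and a linear model of each gene alone also called 0. At an unadjusted p-value under 0.05 it called 949 genes (6.87%, and 4.66% with a higher level in heterozygous mice), of which 0 were Id genes. The log2 fold change was 0.35 for Id1 (95% confidence interval -0.60 to 1.30), 0.30 for Id2 (-0.20 to 0.81), 0.30 for Id3 (-0.65 to 1.24) and 0.08 for Id4 (-0.23 to 0.39). The interval of Id4 thus bounds a difference in heterozygous mice more tightly than those of Id1 and Id3. Without mouse 41 the log2 fold change of Id4 was -0.04, and without mouse 39 those of Id1 and Id3 were -0.24 and -0.29, so that the sign of these differences rested on a single wildtype mouse. That of Id2 could not change sign, since these genotypes did not overlap, but moved between 0.058 without mouse 39 and 0.54 without mouse 41.

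In homozygous against wildtype mice Id2 and Id4 had the larger values of the family, and no Id gene passed the adjusted threshold, which 53 of 13818 genes did (0.384%). The log2 fold change of Id2 was 0.75, or 1.69-fold with a 95% confidence interval of 1.19 to 2.39, at a standard error of 0.20 and a limma adjusted p of 0.183. Id4 differed by 0.52 on the same scale (1.44-fold, interval 1.16 to 1.78, standard error 0.13), with a limma adjusted p of 0.159. These were 2 of 4 Id genes with an unadjusted p-value under 0.05 (0.0110 for Id2 and 0.00655 for Id4, both from limma), a threshold that 18% of all tested genes passed, and 8.65% with a higher level in homozygous mice. Id4 ranked 568 and Id2 ranked 827 among all tested genes by that p-value. When each gene was modelled alone on log2(FPKM), none of 19130 genes was called. The unadjusted p-value in that model was 0.0533 for Id2 and 0.0151 for Id4. The log2 fold change of Id2 was 0.51 without mouse 39, 0.58 without mouse 47 and 1.00 without mouse 41. That of Id4 was 0.65 without mouse 39, 0.54 without mouse 47 and 0.40 without mouse 41.

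Id1 and Id3 did not differ detectably between homozygous and wildtype mice at this replication. The log2 fold change was 0.14 for Id1 (standard error 0.38, adjusted p = 0.870 from limma) and -0.07 for Id3 (standard error 0.38, adjusted p = 0.942 from limma). Their 95% confidence intervals of -0.81 to 1.08 and -1.01 to 0.88 leave room for differences in either direction as large as that of Id2. The sign of both depended on which mice were included, with -0.45 for Id1 and -0.65 for Id3 without mouse 39, and 0.73 and 0.51 without mouse 41. For Id1 it was also -0.059 without homozygous mouse 47.

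**Figure D2:**
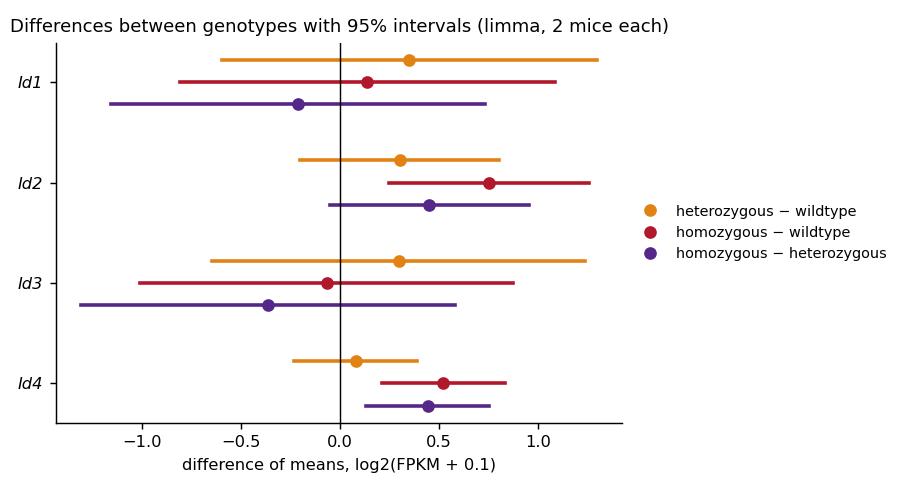
Log2 fold change in FPKM (log2 axis) of each Id gene in the 3 pairwise comparisons of genotypes, with points at the limma estimate and bars at the 95% confidence interval. The intervals of Id2 and Id4 in homozygous against wildtype mice (0.25 to 1.26 and 0.21 to 0.83) and of Id4 in homozygous against heterozygous mice (0.13 to 0.75) do not include 0 before adjustment for the number of genes tested, and the others include it.

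Homozygous against heterozygous mice gave the same division of the family. The log2 fold change was 0.45 for Id2 (95% confidence interval -0.05 to 0.96, adjusted p = 0.707 from limma) and 0.44 for Id4 (0.13 to 0.75, adjusted p = 0.707 from limma), but -0.21 for Id1 (-1.16 to 0.73) and -0.36 for Id3 (-1.31 to 0.58). Only 2 of 13818 genes (0.0145%) passed the adjusted threshold in this contrast and neither was an Id gene. Id4 had an unadjusted p-value of 0.0134 from limma, as 6.39% of tested genes had one under 0.05, and ranked 182. Leaving out a mouse moved the value of Id2 to 0.28 (without mouse 47), that of Id1 to between -0.41 (without mouse 47) and -0.015 (without mouse 49), and that of Id3 to between -0.56 (without mouse 40) and -0.17 (without mouse 37), while Id4 stayed between 0.42 and 0.46. The 3 contrasts share their mice, so they are not separate observations.

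A gene dosage effect was tested as the slope of log2(FPKM + 0.1) over 0, 1 and 2 mutant alleles. The slope per allele was 0.38 for Id2 (standard error 0.10, adjusted p = 0.136 from limma), 0.26 for Id4 (standard error 0.07, adjusted p = 0.143 from limma), 0.07 for Id1 (standard error 0.19, adjusted p = 0.862 from limma) and -0.03 for Id3 (standard error 0.19, adjusted p = 0.939 from limma). None passed, against 49 of 13818 genes (0.355%), and Id2 and Id4 had unadjusted p-values of 0.00567 and 0.00789 beside 19.6% of genes under 0.05 (9.15% with a positive slope). In the exact permutation test over the 6 mice (two-sided, 90 arrangements, not adjusted for the 4 genes) the correlation with allele number gave p = 0.0222 for Id2, the smallest value the design allows, 0.0667 for Id4 and 0.867 for both Id1 and Id3. A criterion like that of the study, an unadjusted F-test p-value under 0.05 in limma with at least 1.5-fold between some pair of genotypes, was met by 8.31% of all tested genes. Id2 met it with a largest difference of 1.69-fold, whereas Id4 passed the F-test but had a largest difference of 1.44-fold. With each gene modelled alone on log2(FPKM), without the limma prior, the F-test p-value was 0.114 for Id2 and 0.0281 for Id4. In that model Id2 thus did not meet the criterion.

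Summed over the family, the Id FPKM was 179 and 344 in mice 39 and 41 (wildtype), 325 and 282 in mice 37 and 40 (heterozygous), and 310 and 264 in mice 47 and 49 (homozygous). This sum was lowest in mouse 39 and highest in mouse 41, the wildtype pair again enclosing all others. Id3 made up between 39.6% and 53.6% of it and Id4 between 4.29% and 9.81%. Id2 took 29.1% and 27.0% in the homozygous mice and at most 22.4% in the other 4. The ratio of Id2 to Id1 was 1.21 and 1.26 with both alleles mutant, 0.795 and 0.767 in heterozygous mice, and 1.03 and 0.634 in the wildtype pair.

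Across the 6 mice, Id1 and Id3 varied together (Pearson's r = 0.910 and Spearman's rho = 0.943 of log2(FPKM + 0.1), n = 6), a description of mice that share their genotypes and sequencing libraries with every other gene. Their ratio, Id1 to Id3, stayed between 0.431 and 0.605. Smad6 and Smad7 are inhibitory Smads that are themselves BMP-induced, and Smad6 was chosen for comparison after its values were seen. The FPKM of Smad6 was 7.09 and 13.4 for the wildtype pair, 13.6 and 10.9 for the heterozygous pair and 10.2 and 10.3 for the homozygous pair. That of Smad7 was 9.20 and 16.1, 14.2 and 11.9, and 8.47 and 10.3. Like Id1 and Id3, both were below their mean in mouse 39 and above it in mice 41 and 37, with r = 0.981 for Id3 with Smad6, 0.849 for Id3 with Smad7, 0.900 for Id1 with Smad6 and 0.619 for Id1 with Smad7 (n = 6 mice each). Id2, also a BMP target, had r = 0.378 with Smad6 and -0.232 with Smad7. For Id4 these values were -0.311 and -0.752. Whether BMP signalling differed between the mice was not tested.

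**Figure D3:**
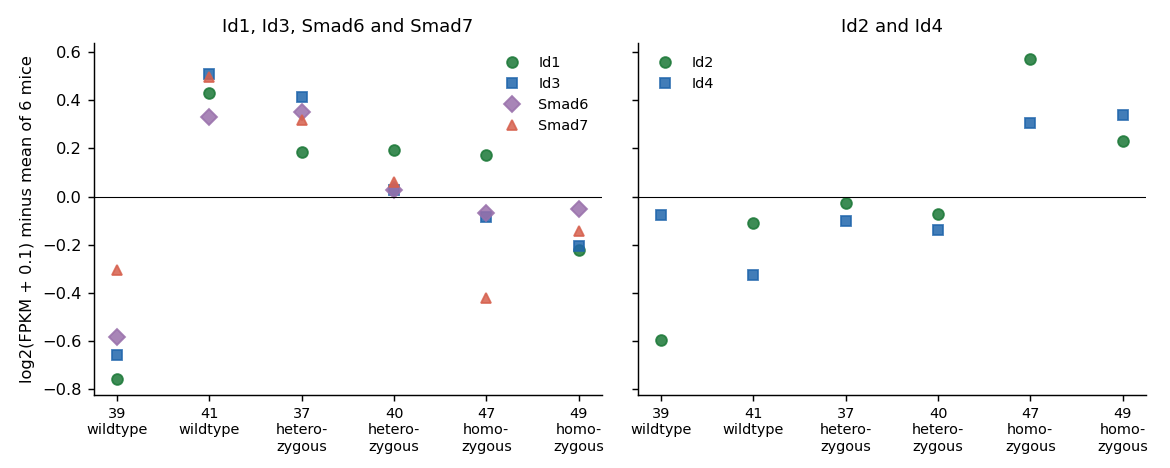
Levels of Id1, Id3, Smad6 and Smad7 (left) and of Id2 and Id4 (right) in the 6 mice as log2 differences from each gene's mean over the mice, with 1 point per gene and mouse. Left, mouse 39 lies below the mean for all 4 genes and mice 41 and 37 above it; right, homozygous mice 47 and 49 lie above the mean for both genes.

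The genes whose pattern over the 6 mice was most like that of each Id gene were named by the highest Pearson's r among genes with an assigned name. Picked from 13817 other genes over only 6 mice, these values of r are high by choice. An r of 0.95 was reached by 20 genes for Id1 (0.145%), 203 for Id2 (1.47%), 29 for Id3 (0.21%) and 14 for Id4 (0.101%). For Id1 they were Trim65, a ubiquitin ligase (0.984), Magoh, a part of the exon junction complex (0.983), and Tmem158 (0.980). For Id2 they were Dhtkd1, a mitochondrial dehydrogenase subunit (0.998), the fatty acid desaturase Fads2 (0.997) and the glycosyltransferase Gcnt1 (0.997). For Id3 they were the stress-responsive transcription factor Atf5 (0.991), Fam104a (0.987) and the skeletal muscle tropomodulin Tmod4 (0.982). For Id4 they were Mospd1 (0.982), the lipoprotein receptor Scarb1 (0.970) and Tnfrsf11a, the receptor RANK (0.961).

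Id4 differs from the other members in its locus, since the annotation places 2 antisense genes over it, A330033J07Rik and Gm49291, while Id1, Id2 and Id3 overlap no annotated gene. The libraries were strand-specific, but whether strand was used in the quantification is not given in the sources used here. The FPKM of A330033J07Rik was 0.164 and 0.235 for the wildtype pair, 0.281 and 0.300 for the heterozygous pair and 0.438 and 0.333 for the homozygous pair. It was ordered by allele number without overlap, as 3.85% of tested genes were, at a level far below that of Id4 in each mouse and too low for it to be tested.

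The promoter of Id4 is shown because Id4 is the member that the study named as a gain-of-function gene. The 250 bases before its RefSeq start, chr13:48260866-48261115 of GRCm38 on the plus strand (RefSeq, GRCm38.p6), are given 5′ to 3′ with capitals at 3 kinds of motif found on either strand. These are the GC box, whose letters are GGGCGG, the CCAAT box, and the BMP response core that Smad proteins bind, whose letters are GGCGCC, and no match overlaps another.
Id4 promoter: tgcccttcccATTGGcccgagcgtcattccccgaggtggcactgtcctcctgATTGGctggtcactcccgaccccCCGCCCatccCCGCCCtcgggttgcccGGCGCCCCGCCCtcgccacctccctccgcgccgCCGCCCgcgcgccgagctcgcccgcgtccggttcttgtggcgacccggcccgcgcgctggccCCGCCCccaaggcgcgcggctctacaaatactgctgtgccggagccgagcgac
Windows of 300 bases (250 before the start to 50 after it) were found for 3 of the 4 members, Id2, Id3 and Id4, among 32544 windows of the genome. RefSeq and GENCODE starts differ. The RefSeq start of Id4 lay 112 bases before its GENCODE span, whereas the windows of Id2 and Id3 lay inside the spans given above. The windows are thus not at like positions relative to those spans. The window of Id4 was 73.3% G and C, that of Id2 63.3% and that of Id3 60.0%, beside a median of 53% over all windows. Id4 held 5 GC boxes, Id3 held 2 and Id2 held 1, and 35.9% of all windows held at least 1. The CCAAT box occurred 2 times in Id4, 3 times in Id2 and 0 times in Id3 (37.4% of windows). The BMP response core occurred once each in Id4 and Id2 (11.9% of windows), and the Smad box (CAGAC) 2 times in Id3 only (49.5% of windows). An E-box (CANNTG) was found once in Id2 and in neither other window (72.3% of windows). The p53 half-site was found in none of the 3 (8.36% of windows), nor was TATAAA (13.6% of windows). These are matches of letters, and nothing about binding was measured.

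The partners and regulators of the Id proteins were examined as 87 genes in 11 lists, of which 71 were abundant enough to be tested. In heterozygous against wildtype mice 0 of 71 passed the adjusted threshold in limma (7 had an unadjusted p-value under 0.05, or 9.86%, beside 6.87% of all tested genes). In homozygous against wildtype mice 0 were higher and 1 was lower (1.41%, beside 0.384% of all tested genes), and the same gene was the only 1 of 71 that passed in homozygous against heterozygous mice. The median log2 fold change of the 71 genes in homozygous against wildtype mice was 0.04, beside -0.04 over all tested genes.

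That gene was Cdkn1a, the p53 target that encodes the cyclin-dependent kinase inhibitor p21 and is also described as repressed by Id proteins. Its FPKM was 109 and 101 with no mutant allele, 40.5 and 41.4 with 1, and 6.70 and 6.17 with 2, and the genotypes did not overlap. It fell by 4.01 on the log2 scale in homozygous against wildtype mice (standard error 0.11, limma adjusted p = 0.00075). Relative to heterozygous mice it fell by 2.65 (limma adjusted p = 0.00398). Of the other 5 tested CDK inhibitors, none passed. Cdkn1b, which encodes p27, had an FPKM of 20.0 and 19.0, 19.8 and 22.7, and 26.1 and 25.9 in wildtype, heterozygous and homozygous mice (log2 fold change 0.41 in homozygous mice, adjusted p = 0.191 from limma).

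Among the direct partners, the 3 E proteins were close to each other in level and none passed the test. Tcf4 had an FPKM of 14.9 and 15.0 for the wildtype pair, 20.3 and 17.9 for the heterozygous pair and 18.0 and 20.2 for the homozygous pair (log2 fold change 0.35 in homozygous mice, adjusted p = 0.241 from limma), so that both mutant groups lay above both wildtype mice. Values above both wildtype mice were found for 19.2% of tested genes in heterozygous mice and for 21.3% in homozygous mice. Tcf12 had a log2 fold change of 0.02. Of 17 tissue-specific basic HLH factors, 10 were tested and 0 passed, with a median log2 fold change of 0.33 in homozygous mice. The most abundant were Bhlha15, a regulator of secretory cells (mean FPKM 87.0, log2 fold change 0.08), and Tcf21, a mesenchymal factor (18.1, 0.04). The muscle determination factors Myod1 and Myf6, chosen after their values were seen, had larger values of 1.52 and 1.01 (limma adjusted p = 0.136 for both), in the mice in which the skeletal muscle markers given below were also higher. Of the Hes and Hey repressors 4 were tested and 0 passed, with -0.0024 for Hes1 and -0.51 for Hes6 (adjusted p = 0.151 from limma). Of 8 Rb and ETS proteins, which bind Id2 or Id family members, 0 passed, with -0.55 for Ets2 (adjusted p = 0.196 from limma) and -0.28 for Rbl2.

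**Figure D4:**
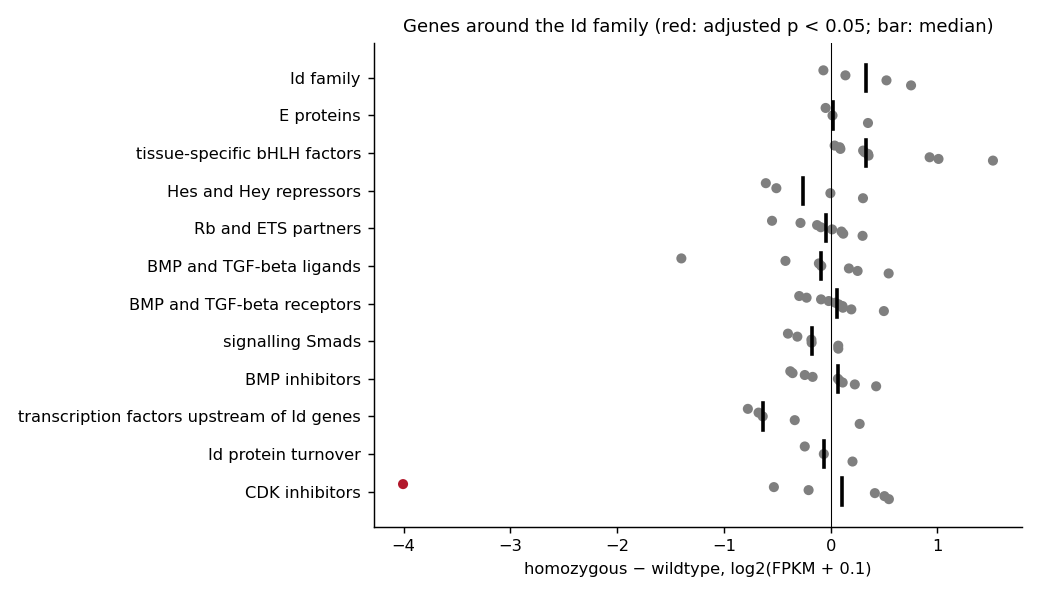
Log2 fold change (log2 axis) in homozygous against wildtype mice for the tested genes of each list around the Id family, with 1 grey point per gene and a bar at the list's median. Cdkn1a (-4.01, red) is the only called gene (limma adjusted p = 0.00075), and the medians of the lists lie on both sides of 0, that of the E proteins near it (0.02).

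The BMP and transforming growth factor beta (TGF-beta) pathway, from ligand to Smad, held no gene that passed. Of 11 ligands 7 were tested. Bmp7, the most abundant, had an FPKM of 24.7 and 30.9 for the wildtype pair, 23.7 and 19.3 for the heterozygous pair and 6.76 and 16.0 for the homozygous pair (log2 fold change -1.40, adjusted p = 0.190 from limma), both homozygous mice being below all others. In either direction, 50% of tested genes separated homozygous from wildtype mice without overlap, and 42.1% separated homozygous from heterozygous mice. Tgfb3 had a log2 fold change of -0.11. All 10 receptors were tested, with 0.04 for Bmpr1b, whose FPKM was 40.6 and 17.9 within the wildtype pair alone, and -0.09 for Tgfbr2. Of the 6 signalling Smads, Smad4, the common partner, had -0.18 and Smad1, which transmits BMP signals, had -0.31 (adjusted p = 0.294 from limma). Of 11 BMP inhibitors 9 were tested, with -0.24 for the secreted antagonist Fst and -0.38 for Smad7.

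Transcription factors known to act upstream of Id genes also did not pass (5 of 6 tested). Jun had a log2 fold change of -0.34 and Myc of 0.27 in homozygous against wildtype mice, and the median of the list was -0.64. Of the 3 genes for the turnover of Id proteins, Cops5, a subunit of the COP9 signalosome, had -0.06 and Fzr1, an activator of the anaphase-promoting complex, had -0.24. RNA levels do not measure the stability of the proteins.

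Id genes are expressed in many cell types, so the marker genes of the cell types that a dissected prostate can hold were measured in the same mice. Mouse 47 had a summed FPKM of 917 for 6 luminal epithelial markers, beside 8098 to 12642 in the other 5 mice, mainly through Pbsn (257 beside 7329 to 11512), which encodes the secretory protein probasin. Mouse 39 had a summed FPKM of 3354 for 5 seminal vesicle markers, beside 30236 to 53400 in the others. Mouse 47 stood apart in this list too, with Svs2, Svs4 and Svs5 listed at 0 and its sum made up of Svs6 (26147, beside 28.6 to 1021 in the other 5 mice) and Svs3a (7321, beside 7.79 to 324). Svs2 was also listed at 0 in mouse 49 and was the only marker gene that passed in homozygous against wildtype mice. Mouse 39 was also the mouse with the lowest Id1, Id2 and Id3, and mouse 47 the mouse with the highest Id2. Whether the marker sums and the Id levels are linked was not tested.

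The 7 endothelial markers had summed FPKM of 35.3 and 38.0 for the wildtype pair, 51.4 and 58.5 for the heterozygous pair and 46.8 and 58.1 for the homozygous pair. Of these, 6 of 7 lay above both wildtype mice in the homozygous pair and 6 of 7 in the heterozygous pair, beside 21.3% and 19.2% of tested genes, none passed and none was at 0. The 6 skeletal muscle markers had sums of 1254 and 1912, 3622 and 3801, and 4415 and 3841. In both mutant groups 6 of 6 were higher without overlap, beside 21.3% of tested genes in homozygous and 19.2% in heterozygous mice. None passed and none was at 0. Basal epithelial markers, of which 4 of 4 were tested, had sums of 124 to 135 in 5 mice and 186 in mouse 41. The sums of the remaining lists ranged from 1156 to 2047 for smooth muscle, 232 to 546 for fibroblasts, 20.6 to 38.6 for Schwann cells, 52.0 to 126 for macrophages, 55.6 to 106 for adipocytes, 8.68 to 11.3 for dividing cells and 1.16 to 1.97 for lymphocytes, whose 4 markers were all under a mean FPKM of 1. The part of these cell types in the levels of the Id genes was not tested.

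**Figure D5:**
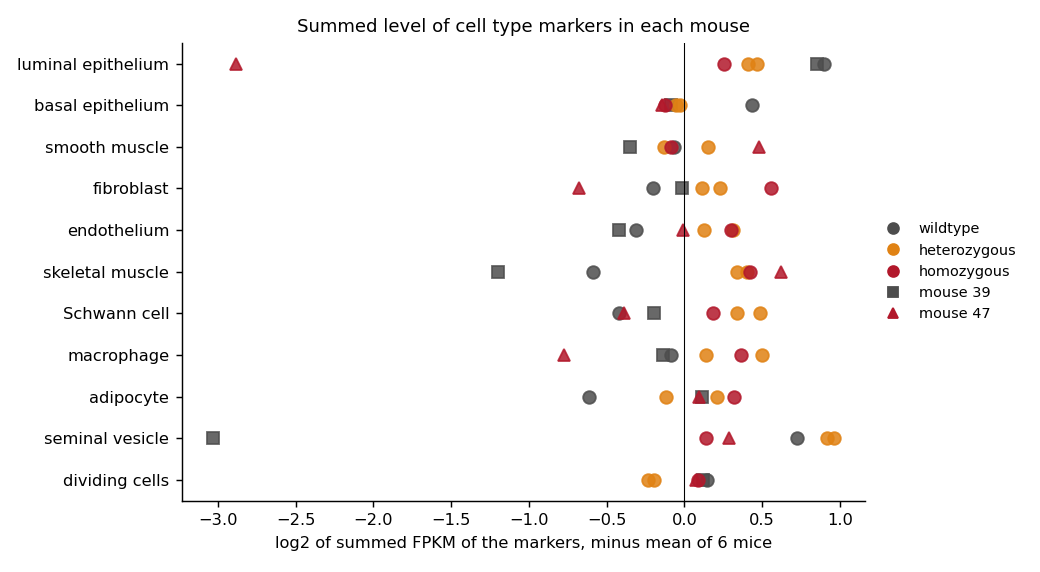
Log2 of the summed FPKM of each cell type's markers in the 6 irradiated prostates, as the difference from the mean over the mice, with 1 point per mouse coloured by genotype and separate symbols for mice 39 and 47 (lymphocyte markers are not plotted). Mouse 47 stands below the others for luminal epithelium (a sum of 917), mouse 39 for seminal vesicle (3354), and both wildtype mice lie below the mutant mice for skeletal muscle (1254 and 1912).

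The results for Id2 and Id4 were recomputed without mice 39 and 47. The log2 fold change in homozygous against wildtype mice was then 0.34 for Id2, beside 0.75 with all mice, and 0.67 for Id4, beside 0.52. Neither could change direction, since both homozygous mice lay above both wildtype mice for each gene. For Id2, mouse 39 held the lower wildtype and mouse 47 the higher homozygous value. Its difference therefore had to shrink, and most of it was lost. For Id4 they held the higher wildtype and the lower homozygous value, so its difference had to grow. For Id1 and Id3 the log2 fold change was -0.65 and -0.71. With 1 wildtype and 1 homozygous mouse left, the error of these values comes from the heterozygous pair and the limma prior, and the lone mice are assumed to vary alike.

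Fragment numbers are not part of the files. The most frequent ratio of the lowest FPKM values between mice gave relative depths of 0.785 to 1.07 times that of mouse 39, a rough estimate, since between 31 and 129 of 1583 to 1878 low genes per mouse showed that ratio.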

How the data were processed

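RNA from 6 irradiated prostates was sequenced by the authors as strand-specific read pairs, aligned to GRCm38 (mm10) with HISAT and quantified with Cufflinks, and per the submitters' processing notes with Cuffnorm. The authors deposited gene-level FPKM for each mouse. These are scaled to gene length and to mapped fragments, so a few very abundant genes can lower the values of all others. The tool versions are not given in the sources used here. Fragment counts are not part of the FPKM files, so no count test was used and no counting interval is given.

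Samples were grouped by the genotype in their titles. A model with the 3 genotypes was fitted to log2(FPKM + 0.1) of the 13818 genes whose FPKM averaged at least 1, using limma 3.58.1 in R 4.3.3 (lmFit, contrasts.fit, eBayes with intensity trend), with Benjamini-Hochberg adjustment over all tested genes and a threshold of 0.05. Fold changes are on this scale. This model had 3 residual and 2.77 prior degrees of freedom, and the fit was tested on simulated data. Its p-values describe the spread between 2 mice per genotype. The slope was fitted in a separate limma model on allele number, with its own degrees of freedom. The spread in that model also takes in departures from a straight line. Tables and the exact tests, by enumeration, were handled in Python 3.11.15 (pandas 2.3.3 and numpy 2.4.6) and plots in matplotlib 3.10.9. Positions are from GENCODE M21 and promoters from RefSeq.

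The members and the gene lists were chosen with earlier results of these data known. Named beside the Id genes are the 2 most abundant genes of each list, up to 3 list genes with an adjusted p-value under 0.05 in any pairwise contrast, marker genes a result turns on, and the 3 named genes most correlated with each Id gene. Smad6, Myod1 and Myf6 were chosen after their values were seen. Alternatives were other pseudocounts (1 and 0.01), other filters (none, and a mean FPKM of at least 5), median scaling, quantile normalization, a prior without intensity trend, a model of each gene alone and leaving out each mouse. A fit without mice 39 and 47 was added after seeing the data.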

Additional observations from a re-analysis of the deposited data

How the results depend on the processing

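Of 240 values for the Id genes under the alternatives, 225 kept their direction, 15 reversed, and 0 had an adjusted p-value under 0.05 (lowest 0.0958). Part of these values could not change direction. The filters and the prior without intensity trend leave each log2 fold change as it was. So does leaving out a mouse that is not in the contrast, or a heterozygous mouse for the slope. Where genotypes did not overlap, leaving out a mouse could not change the sign of their difference either. The count of kept directions therefore overstates the stability. The log2 fold change in homozygous against wildtype mice stayed between 0.34 and 1.00 for Id2 and between 0.40 and 0.67 for Id4. The reversals fell on Id1, Id3 and the heterozygous value of Id4. Without both mice 39 and 47, Id1 had -0.24 in heterozygous mice, -0.65 in homozygous mice and a slope of -0.33, and Id3 had -0.29 in heterozygous mice. With quantile normalization Id3 had 0.16 in homozygous mice and a slope of 0.082. When each mouse was left out in turn, heterozygous against wildtype mice gave -0.24 to 0.94 for Id1, -0.29 to 0.88 for Id3 and -0.044 to 0.20 for Id4, homozygous against wildtype mice gave -0.45 to 0.73 for Id1 and -0.65 to 0.51 for Id3, and the slope gave -0.23 to 0.28 for Id1 and -0.33 to 0.17 for Id3. The lowest of the Id1 and Id3 values came without mouse 39 and the highest without mouse 41.

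The number of genes called among all tested moved more. In homozygous against wildtype mice it was 53 (17 higher and 36 lower), 4 without a filter, 23 without the intensity trend, 0 for each gene alone and 4 to 96 without a mouse, and quantile normalization gave 20 higher and 22 lower. In homozygous against heterozygous mice it was 2, and 1 with a pseudocount of 0.01, 1 under the stricter filter of an FPKM averaging at least 5, 0 for each gene alone, 30 without both mice and 0 to 40 without a mouse. For the slope it was 49, and 10 without a filter, 27 with quantile normalization, 32 without the trend, 0 for each gene alone, 0 without both mice and 0 to 19 without a mouse. In heterozygous against wildtype mice it was 0, 25 without both mice and 0 to 1 without a mouse. The F-test called 14, and 3 without a filter, 4 with quantile normalization, 9 without the trend, 0 for each gene alone, 68 without both mice and 0 to 9 without a mouse. The criterion of an unadjusted F-test with 1.5-fold was met by 1148 genes, 697 under the stricter filter, and 795 to 1858 without a mouse. The cause of these shifts was not tested. No paired analysis was possible because the labels number the mice as individual animals and no number is shared between genotypes. With 2 mice per genotype the intervals of Id1 and Id3 exclude only large differences, and the depth behind a single FPKM value is unknown.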
